A study of Mus musculus with 6 samples.

Results

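The 10 genes described here are regulators of vascular calcification, the deposition of calcium phosphate mineral in the vessel wall. They were taken by name from a table of 33919 genes: the mineral-binding and matrix proteins Mgp and Spp1, the decoy receptor Tnfrsf11b, the pyrophosphate genes Enpp1, Ank and Alpl, the ligands Bmp2 and Bmp4, and the transcription factors Runx2 and Sox9. All 10 were found, and all 10 were among the 16620 genes that passed a filter on low counts.

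In bone and cartilage these genes build mineralised tissue, and in an artery they set the balance between inhibitors and promoters of mineral. Extracellular pyrophosphate, which ENPP1 makes from ATP and for whose export ANK is needed, blocks the growth of hydroxyapatite crystals, and the phosphatase encoded by Alpl removes it. MGP is a vitamin K-dependent inhibitor made by smooth muscle cells and chondrocytes, and mice without it calcify their arteries. Bone morphogenetic proteins (BMPs) act through SMAD transcription factors, and smooth muscle cells that turn on Runx2 or Sox9 take on features of bone or cartilage cells.

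Poly(A) RNA of mouse aorta was sequenced in 3 libraries labelled KO and 3 labelled WT, and the treatment label of all 6 is Ang II, the peptide hormone angiotensin II that raises blood pressure and remodels arteries. The title of the series concerns endothelial OTUD1, a deubiquitinating enzyme, and SMAD3, so the comparison asks how a change in Otud1 alters the artery under Ang II. The sources used here call the allele only KO, and they do not give the cell type in which it is deleted, the strain, the age or the Ang II dose. An untreated group was not analysed here, and a response to Ang II itself therefore cannot be read from these values.

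Otud1 had 1033, 1141 and 1223 counts in the libraries labelled KO and 593, 699 and 615 in those labelled WT, which is a direction opposite to the genotype label, so groups are called by their labels throughout. Total counts were 65.3 M to 71.5 M in libraries labelled KO and 62.3 M to 70.5 M in those labelled WT (M, 1000000 counts), and mitochondrial genes with their nuclear copies took 64.8% to 67.8% of them in the libraries labelled KO and 71.1% to 73.7% in those labelled WT. The third library labelled WT stood apart on the second principal component (-64, against 37.3 and 28.1 for the other libraries of its group). Markers of skeletal muscle far outweighed those of the aortic media: 14 skeletal muscle markers summed to 30998 to 32006 CPM (counts per 1000000 of the TMM-scaled library size) in libraries labelled KO and 24325 to 24914 CPM in those labelled WT, while 12 smooth muscle markers summed to 248 to 254 CPM in the libraries labelled KO and 738 to 753 CPM in those labelled WT. Skeletal muscle is no part of an aorta, and the extraction protocol speaks of adipose tissue; the source of these transcripts was not tested. In bulk RNA of this kind, fewer cells of a type and less RNA per cell cannot be told apart.

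Of the 10 regulators, 3 were lower and 1 was higher in the libraries labelled KO. By the change fitted in edgeR, Mgp was 2.57-fold, Spp1 7.91-fold and Enpp1 2.64-fold lower, and Ank was 1.38-fold higher. Each passed an adjusted p of 0.05 in edgeR's quasi-likelihood test, corrected over all 16620 genes tested, of which 10.5% were called lower and 11.5% higher. The split was 1751 genes lower and 1907 higher in edgeR, against 824 lower and 2734 higher by limma on log2(FPKM + 1), a fit that differed in test, unit and gene filter. The other 6 members (Tnfrsf11b, Bmp4, Alpl, Sox9, Runx2 and Bmp2) did not pass. The median log2 fold change was -1.08 over the 10 members and -0.02 over all genes tested. The changes of Runx2 and Sox9, genes of low counts that did not pass, set the median of the members. In CPM, the 3 values labelled KO lay wholly below the 3 labelled WT for 4 members (Mgp, Spp1, Enpp1 and Tnfrsf11b). They lay wholly above for 2 members (Ank and Bmp4). Of all genes tested, 19.4% lay wholly below and 19.3% wholly above.

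The start regions of Spp1, Enpp1 and Ank are shown because these are the called members with an entry among RefSeq promoters on GRCm38.p6, where 6 of the 10 members matched. Each line holds the 250 bases before the annotated start, 5′ to 3′ on the gene's own strand, at chr5:104434861-104435110 (plus strand) for Spp1, chr10:24712160-24712409 (minus strand) for Enpp1 and chr15:27466427-27466676 (plus strand) for Ank. Capitals mark matches, on either strand, to letters linked with factors of this pathway.
Spp1: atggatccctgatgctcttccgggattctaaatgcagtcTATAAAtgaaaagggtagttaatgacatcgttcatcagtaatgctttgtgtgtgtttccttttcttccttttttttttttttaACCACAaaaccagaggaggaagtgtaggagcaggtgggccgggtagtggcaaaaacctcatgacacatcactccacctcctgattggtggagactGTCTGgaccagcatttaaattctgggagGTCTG
Enpp1: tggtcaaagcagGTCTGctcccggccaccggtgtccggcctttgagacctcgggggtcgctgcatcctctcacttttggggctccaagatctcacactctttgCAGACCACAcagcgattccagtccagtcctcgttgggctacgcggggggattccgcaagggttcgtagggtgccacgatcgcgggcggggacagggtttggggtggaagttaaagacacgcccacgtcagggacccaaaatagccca
Ank: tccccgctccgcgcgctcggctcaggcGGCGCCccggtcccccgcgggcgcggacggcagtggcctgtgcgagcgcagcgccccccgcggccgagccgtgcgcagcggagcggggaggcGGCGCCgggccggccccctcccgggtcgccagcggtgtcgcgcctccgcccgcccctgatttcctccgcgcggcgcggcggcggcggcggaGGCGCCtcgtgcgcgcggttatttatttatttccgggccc
Searched were TATAAA as a TATA box, TGTGGT as the core bound by RUNX proteins, CAGAC as a short SMAD element, GGCGCC as the GC-rich SMAD element of BMP targets, and the AP-1 motif TGANTCA.

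The Spp1 stretch had a GC content of 43.6%, the Enpp1 stretch 61.2% and the Ank stretch 81.2%, against a median of 52% over the promoters of all 27025 genes in the set. Spp1 and Enpp1 each held 1 match to TGTGGT, which 14.2% of promoters hold, and 2 matches to CAGAC, which 42.2% hold. In Enpp1 the match to TGTGGT, 144 bases before the start, overlaps one to CAGAC at 147 bases. Ank held neither and had 3 matches to GGCGCC, which 9.57% of promoters hold, at 223, 131 and 40 bases before the start. Spp1 alone of the 3 held TATAAA (13.0% of promoters), at 211 bases before the start, and none held TGANTCA (6.85%). Among the members that did not pass, Runx2 held 1 match to TGTGGT, 80 bases before its RefSeq start, which lies inside the gene as the deposited table bounds it, Alpl held 1 to GGCGCC and Bmp4 held none of the 5 motifs. These matches describe the letters of a window only.

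Mgp, which encodes matrix Gla protein, was by far the most abundant member. The gene (chromosome 6, 136872435 to 136875823, minus strand, GRCm38) had 42.8, 46.5 and 43.7 CPM in libraries labelled KO and 107.5, 115.2 and 118.4 CPM in those labelled WT. Every library labelled KO lay below every library labelled WT, and the values within a group spread little. The log2 fold change was -1.36 (SE 0.06, adjusted p = 1e-07 by edgeR). The deposited scale of FPKM (fragments per kilobase of transcript and 1000000 fragments) allows genes to be compared. On it, Mgp averaged 35.6 ± 1.40 in the libraries labelled KO and 82.4 ± 6.76 in those labelled WT (SD, n = 3 each). Its mean level was above that of 98.0% of the genes tested. Of 12 listed genes of Gla proteins and the vitamin K cycle 9 were tested, and Mgp alone was called (limma on FPKM also called 1 higher). Their median was -0.12 on the log2 scale.

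Spp1 was lower as well, with values that spread widely. It encodes osteopontin, a phosphorylated glycoprotein that binds mineral and integrins and that macrophages, bone cells and activated smooth muscle cells secrete. The gene (chromosome 5, 104435118 to 104441050, plus strand) had 48, 17 and 32 counts in the libraries labelled KO and 169, 91 and 416 in those labelled WT. Scaled, these were 0.674, 0.233 and 0.441 CPM in the libraries labelled KO, against 2.52, 1.51 and 6.65 CPM in those labelled WT. The groups did not overlap, but the third library labelled WT was several times higher than the others of its group. The log2 fold change was -2.98 (SE 0.57, adjusted p = 0.00361 by edgeR). Without that library it was -2.16 (adjusted p = 0.0218), and unfiltered limma on log2(FPKM + 1), a scale that understates changes of low genes, gave -1.08 (adjusted p = 0.151). Spp1 shares 309 exonic bases with the gene model Gm42793 on the same strand, so reads there could be split between them.

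Tnfrsf11b, which encodes osteoprotegerin, the soluble decoy receptor for the osteoclast factor RANKL, was low in every library. It had 0, 16 and 11 counts in the libraries labelled KO and 63, 39 and 58 in those labelled WT (chromosome 15, 54250619 to 54278484, minus strand). The groups did not overlap, and 1 library labelled KO had no count at all. Its log2 fold change of -2.74 (SE 0.98) did not pass edgeR's test (adjusted p = 0.071). DESeq2 on the same counts gave an adjusted p of 0.00102, and edgeR on counts divided by 4 gave 0.00685. Of 13 alternatives run, 3 called it and 10 did not. Among those 10 were all 6 fits that left out 1 library (adjusted p from 0.0653 to 0.17 by edgeR).

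**Figure D1:**
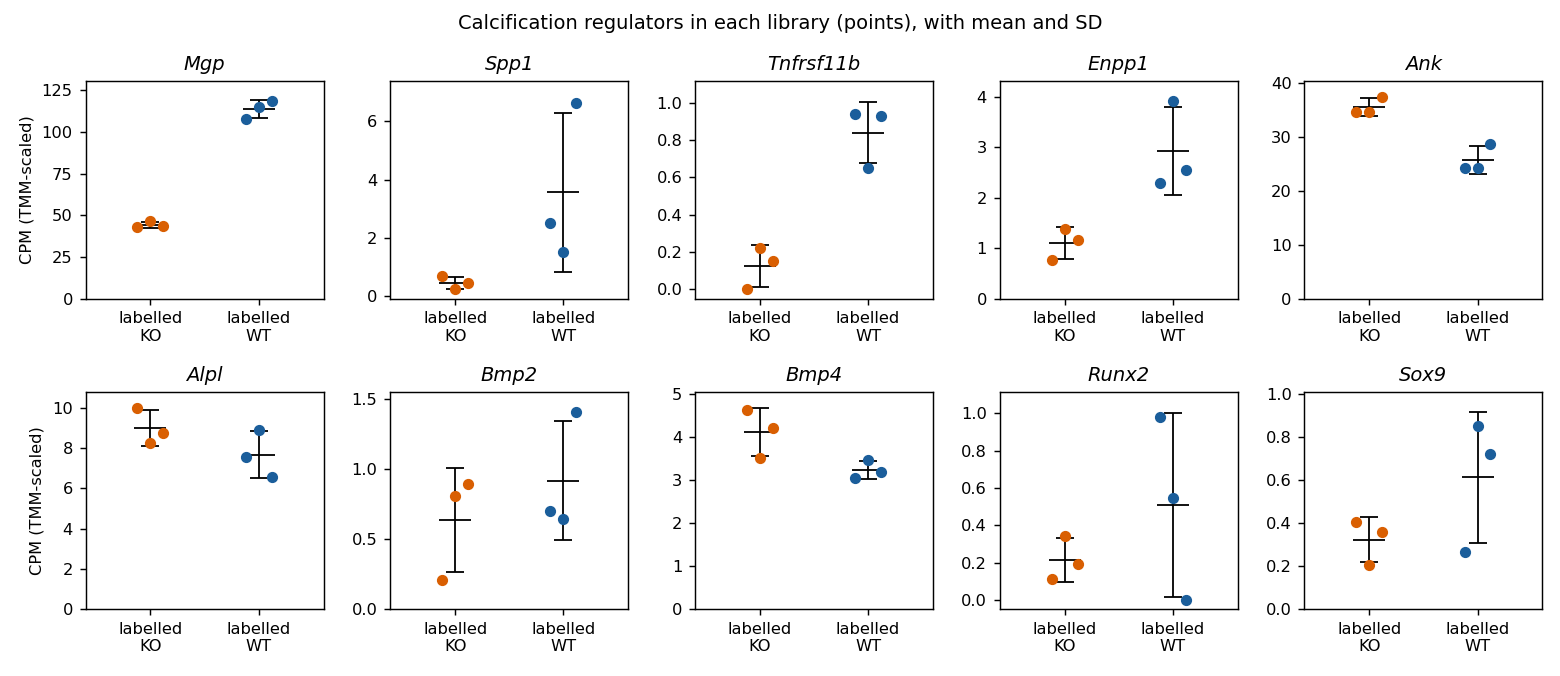
CPM of the 10 regulators in each library, with libraries labelled KO in orange at the left of each panel and libraries labelled WT in blue at the right; points are libraries, bars the mean and SD (n = 3 each), and each panel has its own linear axis. Mgp, Spp1, Tnfrsf11b and Enpp1 lie wholly lower and Ank and Bmp4 wholly higher in the libraries labelled KO, and the remaining 4 members overlap.

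Of the pyrophosphate genes, Enpp1 was lower, Ank was higher and Alpl did not pass the test. Enpp1, whose product makes pyrophosphate outside the cell (chromosome 10, 24637914 to 24712159, minus strand), had 55, 101 and 84 counts in the libraries labelled KO and 154, 235 and 160 in those labelled WT. Scaled, it had 0.772, 1.38 and 1.16 CPM in libraries labelled KO and 2.29, 3.91 and 2.56 CPM in those labelled WT, with no overlap. The log2 fold change was -1.40 (SE 0.33, adjusted p = 0.0113 by edgeR), and without the second library labelled WT, the highest of the 6, it was -1.14 with an adjusted p of 0.058. Unfiltered limma on log2(FPKM + 1) gave -0.17 (adjusted p = 0.0991).

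Ank, whose product is a membrane protein needed for pyrophosphate outside cells (chromosome 15, 27466677 to 27594909, plus strand), was higher. It had 34.6, 34.7 and 37.4 CPM in libraries labelled KO and 24.3, 24.3 and 28.7 CPM in those labelled WT. The lowest library labelled KO lay above the highest labelled WT, and the log2 fold change was 0.47 (SE 0.09, adjusted p = 0.00324 by edgeR).

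Alpl encodes tissue-nonspecific alkaline phosphatase, which breaks pyrophosphate down (chromosome 4, 137741733 to 137796384, minus strand). It had 10.0, 8.26 and 8.75 CPM in libraries labelled KO and 7.57, 8.90 and 6.57 CPM in those labelled WT. The groups overlapped in CPM. The log2 fold change of 0.23 (SE 0.15) did not pass the test (adjusted p = 0.313 by edgeR). In FPKM the groups did not overlap, at 1.93 to 2.46 in the libraries labelled KO and 1.47 to 1.81 in those labelled WT. Filtered limma on log2(FPKM + 1) gave a change of 0.25 with an adjusted p of 0.0769.

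The level of Ank relative to Enpp1 was higher in every library labelled KO. The ratio of their FPKM was 129.5, 71.5 and 92.6 in the libraries labelled KO and 30.1, 17.7 and 32.0 in those labelled WT. The ratio of Alpl to Enpp1 was 33.5, 15.2 and 19.4 in the libraries labelled KO and 8.39, 5.77 and 6.56 in those labelled WT. Neither ratio overlapped between groups, whereas the ratio of Alpl to Ank did, at 0.209 to 0.259 in the libraries labelled KO and 0.205 to 0.326 in those labelled WT. Enpp1 is the divisor of both separated ratios, and all 6 of its values are low.

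Among 14 genes of pyrophosphate, adenosine and phosphate handling, 13 were tested, 3 were higher and 2 lower, with a median log2 fold change of 0.05. Of all genes tested, 11.5% were called higher and 10.5% lower. Beside Ank and Enpp1, the phosphate importer Slc20a2 was higher (log2 fold change 0.33, adjusted p = 0.0224), and so was Entpd1, an enzyme that degrades extracellular ATP (0.43, adjusted p = 0.0234). The other phosphate importer, Slc20a1, was lower (-0.41, adjusted p = 0.0152, all by edgeR). These 3 calls were lost without the second or the third library labelled KO or the third labelled WT, and those for Slc20a2 and Entpd1 also without the second labelled WT (adjusted p from 0.062 to 0.0912), which left 1 gene higher and 1 lower in the list in each of these 4 fits. Limma on FPKM called 0 genes of the list lower. Nt5e, which makes adenosine from AMP, had 1.49, 0.52 and 0.661 CPM in libraries labelled KO and 0.417, 0.499 and 0.527 CPM in those labelled WT (adjusted p = 0.315). Abcc6, the transporter lost in pseudoxanthoma elasticum, did not enter the test, with 0, 9 and 0 counts in the libraries labelled KO and 0, 7 and 0 in those labelled WT.

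Bmp4, a secreted BMP (chromosome 14, 46383520 to 46390669, minus strand), had 4.62, 3.50 and 4.22 CPM in libraries labelled KO and 3.04, 3.46 and 3.20 CPM in those labelled WT. The values separated by a narrow margin, and the log2 fold change of 0.35 (SE 0.19) did not pass edgeR's test (adjusted p = 0.244). Limma on log2(FPKM + 1) gave a change of 0.29 with an adjusted p of 0.0467 over the 10726 genes of its filter, whose median was 0.11, and of 0.124 without the filter. Bmp4 shares 89 exonic bases with Gm15217 on the opposite strand, which had few counts.

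Bmp2, the close relative of Bmp4 that promotes bone formation (chromosome 2, 133552159 to 133562885, plus strand), had 15, 59 and 65 counts in the libraries labelled KO and 47, 39 and 88 in those labelled WT. The groups overlapped (log2 fold change -0.52, SE 0.61, adjusted p = 0.613 by edgeR). Bmp6, named here for its level after its values were seen, was the most abundant BMP ligand, at 5.32 FPKM in the libraries labelled KO and 4.31 in those labelled WT, which is 2.67 to 3.56 times Bmp4 in the libraries labelled KO and 3.24 to 3.92 times in those labelled WT.

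The table holds 11 BMP ligands, of which 7 were tested and 1 was called, as higher, against 11.5% called higher among all genes tested. That gene, Bmp8b, had 10, 50 and 21 counts in the libraries labelled KO and none in those labelled WT, and its call was lost without the second library labelled KO, the highest (adjusted p = 0.0652). DESeq2 also called 1 ligand lower. Gdf2 and Gdf7 had no count in any library.

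Genes that restrain BMP signalling were lower in part. Of 16 tested antagonists 9 were lower and 0 higher, at a median log2 fold change of -0.80, and limma on FPKM called 4 or 5 lower and 0 higher. Fstl1, a secreted follistatin-like protein, fell to 20.6 ± 1.41 CPM in the libraries labelled KO, against 39.9 ± 1.54 in those labelled WT (SD, n = 3 each). Log2 fold changes were -0.68 for Nbl1, a secreted BMP antagonist, -0.92 for Htra1, a secreted protease, and -2.10 for Chrdl1, which binds BMP4 (adjusted p from 0.000407 to 0.00126 by edgeR). Nog, which encodes noggin, had 1.80, 3.39 and 4.31 CPM in libraries labelled KO and 2.32, 4.39 and 2.24 CPM in those labelled WT (adjusted p = 0.902). Grem1 did not enter the test, with 0, 4 and 0 counts in the libraries labelled KO and 0, 12 and 11 in those labelled WT.

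Among 12 receptors and SMADs of the BMP branch, 3 were lower and 0 higher in edgeR, whereas limma on FPKM called 0 lower and 1 higher, the endothelial co-receptor Eng (adjusted p from 0.0187 to 0.0365), which DESeq2 also called (adjusted p = 0.00784). The 3 were Smad5 (log2 fold change -0.51, adjusted p = 0.015) and Smad1 (-0.53, adjusted p = 0.0316), which carry the BMP signal to the nucleus, and the receptor Bmpr1a (-0.42, adjusted p = 0.0479). These calls hung on single libraries. That for Smad5 was lost in 3 of 6 fits that left out 1 library (the second labelled KO, the first or the third labelled WT), that for Smad1 in 4 (the first or second labelled KO, the second or the third labelled WT) and that for Bmpr1a in 5 (each library except the first labelled WT), with adjusted p from 0.055 to 0.176. The count for the list was then 0 without the second library labelled KO or the third labelled WT, and 1 without the first labelled KO or the second labelled WT.

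Of the 7 tested genes known to respond to BMPs, 4 were lower and 1 higher. Id1, a helix-loop-helix inhibitor that BMP SMADs induce directly, had 29.3, 30.9 and 30.2 CPM in libraries labelled KO and 43.3, 44.6 and 45.6 CPM in those labelled WT. The groups were well apart (log2 fold change -0.56, SE 0.07, adjusted p = 0.000152 by edgeR). Its relatives Id2 (-0.89, adjusted p = 0.00197) and Id4 (-2.35, adjusted p = 0.0211) were lower as well, as was Id3 (-0.34, adjusted p = 0.0242), and Hey1, which BMP9 and Notch induce in endothelium, was higher (0.45, adjusted p = 0.0159). The calls for Id4 and Hey1 were each lost without the first library labelled KO or the first or second labelled WT (adjusted p from 0.0514 to 0.0839), the change of Id4 was -3.59 without the third library labelled KO, and the call for Id3 was lost without the second or the third library labelled KO or the second or the third labelled WT (adjusted p from 0.0718 to 0.097). The number lower was 2 without the second library labelled WT and 2 by limma on FPKM.

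**Figure D2:**
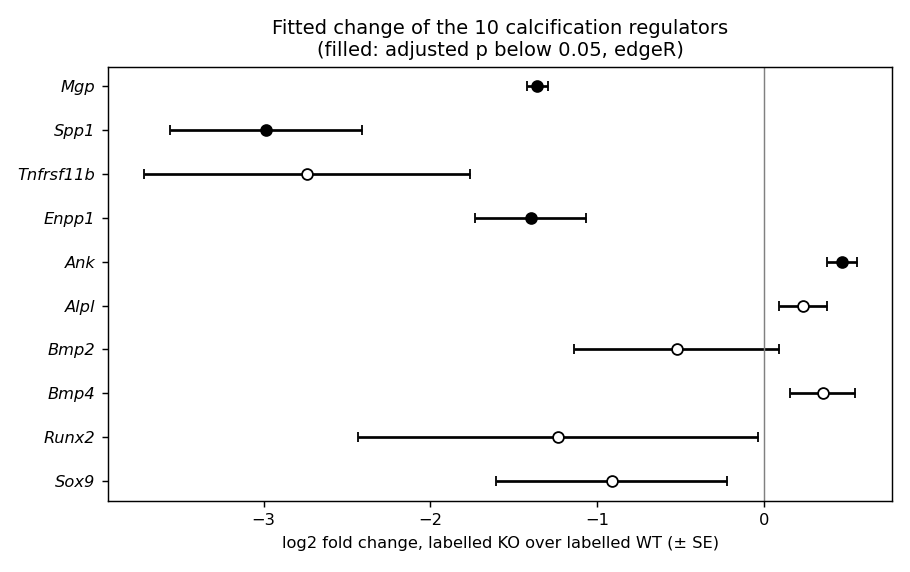
Fitted log2 fold change of each regulator, libraries labelled KO over libraries labelled WT, with SE from edgeR; filled points passed an adjusted p of 0.05 over all genes tested. Mgp, Spp1 and Enpp1 lie at -1.36, -2.98 and -1.40 and Ank at 0.47, and the widest bars belong to Runx2 (SE 1.20) and Tnfrsf11b (SE 0.98).

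Runx2, the master transcription factor of bone formation (chromosome 17, 44495987 to 44814797, minus strand), was the least abundant member. It had 8, 25 and 14 counts in the libraries labelled KO and 66, 33 and 0 in those labelled WT. The group labelled WT held both the highest and the lowest library, and a difference was not detectable at this depth (log2 fold change -1.24, SE 1.20, adjusted p = 0.531 by edgeR). Without the first library labelled WT the change was -0.34, and without the third it was -1.82. Antisense genes overlap Runx2, among them Runx2os1 with 519 bases of shared exon, and reads of the strands cannot be told apart where the counting is not stated to use strand, although the table gave no count to Runx2os1.

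Sox9, which directs cartilage formation (chromosome 11, 112782224 to 112787760, plus strand), had 29, 15 and 26 counts in the libraries labelled KO and 18, 51 and 45 in those labelled WT. The groups overlapped, with a log2 fold change of -0.91 (SE 0.69, adjusted p = 0.407 by edgeR). By mean FPKM, 2.42% of the genes tested lay below Runx2 and 10.6% below Sox9.

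Several matrix genes of cartilage and bone were lower, and the osteoblast genes Sp7 and Ibsp were at 0. The table holds 30 osteochondrogenic genes. Of the 16 tested, 8 were lower and 0 higher, at a median log2 fold change of -1.08. The members Runx2 and Sox9 are among the 16, and neither was called. Their changes lie at the middle and set this median, as they do that of the 10 members. Limma on FPKM called 5 lower, and 1 was higher in edgeR without the second library labelled WT. The cartilage matrix genes Comp, Chad and Col11a1 had log2 fold changes of -3.75, -5.59 and -3.83, and Sparc, which encodes the collagen-binding protein osteonectin, one of -0.84 (adjusted p from 1.19e-07 to 0.00343 by edgeR). Chad, for chondroadherin, had 0.112, 0.109 and 0.207 CPM in libraries labelled KO and 6.66, 6.54 and 7.78 CPM in those labelled WT. Comp and Chad are also in the chondrocyte and tendon marker list. Other cartilage genes of the list were near or at 0 in both groups and did not enter the test. Col2a1 had 0, 0 and 6 counts in the libraries labelled KO and 33, 0 and 10 in those labelled WT. Col9a1 had no count in any library. Sp7, the osteoblast transcription factor, and Ibsp, for bone sialoprotein, had no count in any library, and Bglap, for osteocalcin, had 7 counts in 1 library labelled WT and none elsewhere. Sost, an osteocyte inhibitor of Wnt signalling, was at 0 counts in every library labelled KO and had 30, 17 and 44 in those labelled WT, at least 2.88-fold lower against a floor of 12 counts per library.

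In the RANKL axis, 11 of 14 genes were tested, 1 was higher and 2 were lower by edgeR, which called 11.5% of all genes tested higher and 10.5% lower. Filtered limma on FPKM called 2 of the list higher and 1 lower, and without its filter 1 higher and 3 lower. Tnfsf11, for RANKL itself, had no count in any library, and its receptor Tnfrsf11a had 1.32, 0.602 and 0.496 CPM in libraries labelled KO and 1.04, 1.31 and 2.03 CPM in those labelled WT (adjusted p = 0.249). The osteoclast proteases Ctsk and Mmp9 had log2 fold changes of -1.58 and -1.46 (adjusted p = 0.00108 and 0.0104), and the acid phosphatase Acp5 rose by 0.51 (adjusted p = 0.000937, all by edgeR). Of 9 receptors that can bind osteopontin, 4 were lower and 0 higher, against 1 lower on the FPKM scale. Itga8, also a smooth muscle gene, had a log2 fold change of -3.65, and Itgb5, Itgb1 and Cd44 had -0.31, -0.30 and -0.63. The call for Cd44 was lost in 5 of 6 fits that left out 1 library, all but that without the third labelled KO (adjusted p from 0.052 to 0.101).

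**Figure D3:**
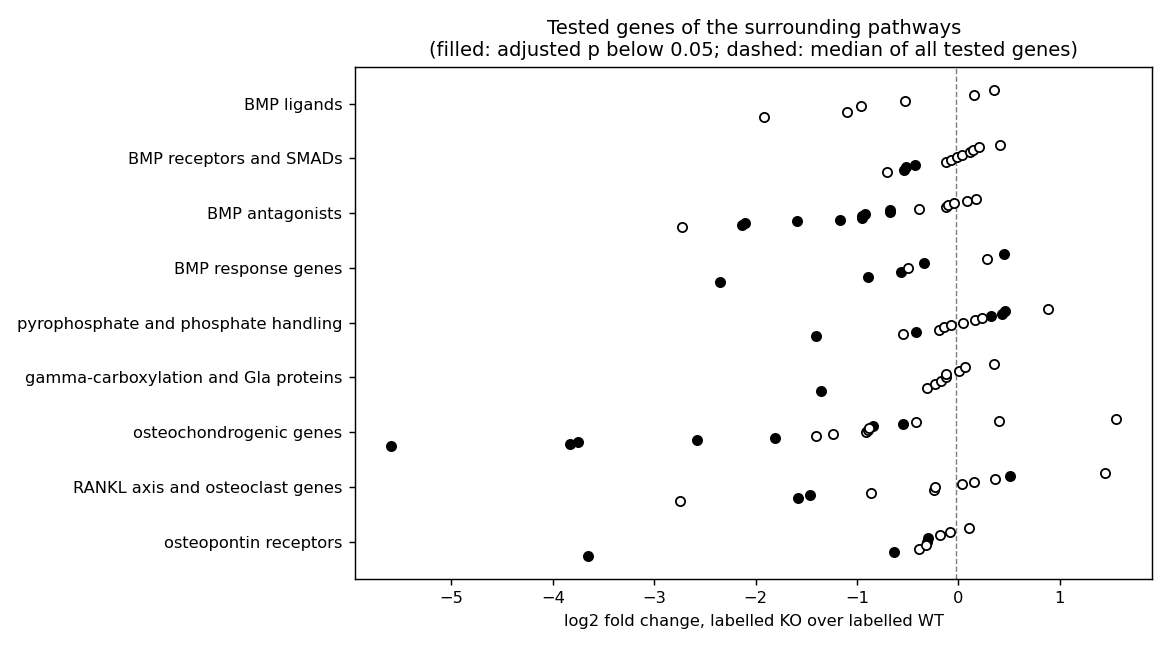
Log2 fold changes, libraries labelled KO over libraries labelled WT, of the tested genes of 9 surrounding pathway lists, some of which include members. Each point is a gene, filled where the adjusted p was below 0.05. The dashed line is the median of all tested genes (-0.02). Bmp8b and Sost, which had no count in 1 group, are not drawn; filled points of the antagonist list (9) and of the osteochondrogenic list (7 drawn) all lie left of the line.

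Order of abundance by FPKM put Mgp first and Ank second in both groups, and neither overlapped its neighbours. In the libraries labelled KO, Alpl (2.13 ± 0.289) and Bmp4 (1.74 ± 0.285) came next and overlapped, and the remaining 6, from Spp1 (0.258 ± 0.138) to Runx2 (0.0228 ± 0.0121), each overlapped the next. In the libraries labelled WT, Spp1 (1.89 ± 1.53) overlapped both Alpl (1.63 ± 0.169) and Bmp4 (1.23 ± 0.0729), Bmp4 lay below Alpl without overlap, and Tnfrsf11b, Enpp1, Bmp2, Sox9 and Runx2 each overlapped the next, from 0.254 ± 0.0579 to 0.0479 ± 0.0470 (all SD, n = 3).

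Cell type markers also differed between the groups, in both directions. Of 12 smooth muscle markers 11 were lower and 0 higher, and Myocd was at 0 in every library labelled KO. Of 12 fibroblast markers 11 were lower and 0 higher (1 higher by DESeq2 and by filtered limma on FPKM), and the list summed to 685 to 693 CPM in the libraries labelled KO and 1338 to 1369 CPM in those labelled WT. Of 12 macrophage markers 6 were lower and 0 higher (2 to 7 lower over the alternatives), with sums of 151.2 to 156.6 CPM in the libraries labelled KO and 215.8 to 228.7 CPM in those labelled WT. Skeletal muscle went the other way, with 10 of 14 markers higher and 1 lower.

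Of 14 chondrocyte and tendon markers 8 were tested and 6 were lower, with sums of 21.6 to 28.0 CPM in the libraries labelled KO and 118.8 to 127.4 CPM in those labelled WT, while the cartilage markers Matn1 and Col9a1 had no count anywhere. Of 10 osteoblast markers present, 6 were tested and 3 were lower (1 by filtered limma on FPKM), with sums of 11.02 to 12.6 CPM in the libraries labelled KO and 45.0 to 49.7 CPM in those labelled WT. This list shares Sost, Bglap, Sp7 and Ibsp, among others, with the osteochondrogenic genes. The endothelial list (3 of 12 higher, 4 lower, and 2 lower by limma on FPKM) summed to 754 to 768 CPM in the libraries labelled KO and 777 to 801 CPM in those labelled WT, and the adipocyte list (6 of 12 higher, 4 lower, and 1 to 6 lower over the alternatives) to 3524 to 3677 CPM in the libraries labelled KO and 3526 to 3585 CPM in those labelled WT.

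Set against these markers in the same library, the called members did not keep one ratio. Mgp amounted to 16.9%, 18.8% and 17.3% of the smooth muscle sum in the libraries labelled KO and 14.6%, 15.3% and 15.9% in those labelled WT. Against the fibroblast sum it was 6.17%, 6.74% and 6.39% in the libraries labelled KO and 8.04%, 8.60% and 8.65% in those labelled WT. The share of the smooth muscle sum was higher and that of the fibroblast sum lower in every library labelled KO.

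Spp1 was lower in the libraries labelled KO relative to both lists it was set against. It amounted to 0.430%, 0.150% and 0.291% of the macrophage sum in the libraries labelled KO and 1.17%, 0.696% and 2.91% in those labelled WT, and, without overlap either, to 0.0337% to 0.0972% of the fibroblast sum in the libraries labelled KO and 0.113% to 0.486% in those labelled WT. Enpp1 against the fibroblast sum overlapped, at 0.111% to 0.2004% in the libraries labelled KO and 0.171% to 0.292% in those labelled WT, and against the chondrocyte and tendon sum it was higher in the libraries labelled KO (3.25% to 5.37%, against 1.83% to 3.07% in those labelled WT). Ank against the skeletal muscle sum overlapped, at 0.108% to 0.121% in the libraries labelled KO and 0.0976% to 0.118% in those labelled WT. The part of these cell types in the members' changes was not tested.

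**Figure D4:**
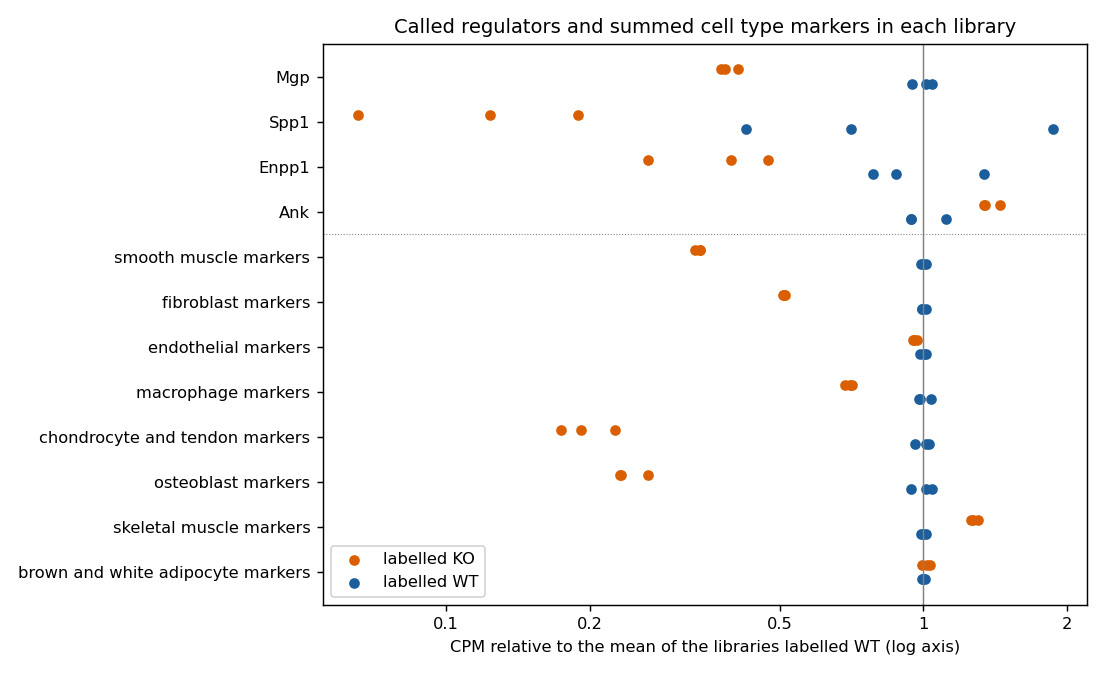
CPM of the 4 called regulators and summed CPM of 8 cell type marker lists in each library, relative to the mean of the libraries labelled WT, on a log axis; orange points, drawn above, are libraries labelled KO and blue points libraries labelled WT. By mean in the libraries labelled KO, Mgp (0.39) lies between the smooth muscle (0.338) and fibroblast (0.511) sums. By the same mean, Spp1 (0.126) lies below all 8 sums, and Ank (1.38) lies near the skeletal muscle sum (1.28). In single libraries labelled KO, Spp1 (0.065 to 0.189) overlaps the chondrocyte and tendon sum (0.174 to 0.226).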

How the data were processed

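RNA sequencing of 6 libraries was analysed, 3 labelled KO and 3 labelled WT by genotype, all treated with Ang II. The authors deposited whole-number counts per gene and FPKM in one table. Bowtie 0.12.2, HISAT2 2.0 and the build mm8 stand in the submitters' processing notes without roles; which program counted the reads, and whether by strand, is not stated there. The coordinates of all 10 members equal those of GENCODE M21 on GRCm38 and are given as such.

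Counts were tested with edgeR 4.0.16 in R 4.3.3: filterByExpr, TMM scaling (trimmed mean of M values), glmQLFit and a two-sided quasi-likelihood F-test on genotype, with Benjamini-Hochberg adjustment over 16620 genes. CPM are TMM-scaled, fold changes are KO over WT, and SE is the log2 fold change divided by the root of F. Alternatives used DESeq2 1.42.0, limma 3.58.1 on log2(FPKM + a pseudocount of 1 or 0.1), and others given below. Between 33.0% and 34.9% of counts from 1 to 40 were multiples of 4, against 25% by chance. The cause was not tested, and most low counts were not multiples of 4. The floor for a gene without counts was set at 12 counts per library. That equals 3 read pairs only on the assumption of 4 counts per pair. The floor covers counting error only. The tests were tried on simulated counts with known changes, which were given to no gene of low mean CPM. Of 100 genes changed 1.5-fold, edgeR recovered 18, DESeq2 29 and limma, there on CPM, 20. Of 100 genes changed 2-fold they recovered 68, 82 and 75. False calls numbered 10 in edgeR, 41 in DESeq2 and 11 in limma. A gene that did not pass is therefore not shown to be unchanged.

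The labels name no animals, so p-values measure the spread between libraries. Members and gene lists were chosen with earlier results of these data known, as were the motifs. Named beside the members are up to 4 called genes per list by smallest p, and direct partners (Tnfsf11, Tnfrsf11a, Sp7, Bglap, Abcc6, Nt5e, Nog, Grem1, Id1). Names beyond these (Bmp6, Gdf2, Gdf7, Ibsp, Sost, Entpd1, Id3, Eng and the marker genes given for their counts) were chosen after their values were seen. Figures were drawn with matplotlib 3.10.9.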

Additional observations from a re-analysis of the deposited data

How the results depend on the processing

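The count of members called lower was 3 in every alternative on counts run except DESeq2 and counts divided by 4, which added Tnfrsf11b (4 each), and the fit without the second library labelled WT, which lost Enpp1; over fits without 1 library it was 2 to 3, and limma on FPKM called 2. Members called higher stayed at 1 without any library and became 2, Ank and Bmp4, with limma on log2(FPKM + 1) and on log2(FPKM + 0.1), both with a filter. Without a filter, limma called Tnfrsf11b (adjusted p = 0.0263) and did not call Spp1 (0.151) or Enpp1 (0.0991). Of all genes, 1751 were lower, against 824, 808 and 754 with limma on log2(FPKM + 1), log2(FPKM + 0.1) and log2(FPKM + 1) without filter, where 2734, 2686 and 1867 were higher; the cause was not tested. Without 1 library each, 1465 to 1703 genes were higher and 1411 to 1468 lower. DESeq2 called 2571 higher and 2576 lower. The median log2 change was 0.11 and 0.17 over the 10726 genes of filtered limma with pseudocounts of 1 and 0.1 and 0.0063 over 28426 genes without the filter, against -0.02 in edgeR. The fitted change of Nog turned negative without the third library labelled KO (-0.20), the first labelled WT (-0.06) or the third labelled WT (-0.08), and ranged from -0.20 to 0.47 over fits without 1 library. Tnfrsf11b had a larger fitted change than Spp1 without the second library labelled KO (-3.43 and -2.67), without the third labelled WT (-2.66 and -2.16) and with the block (-3.15 and -2.83). No member changed sign in any alternative run. With the replicate block, 1 member was higher and 3 were lower, and 1703 genes were higher and 1552 lower; libraries of the same number did not deviate together (correlations 0.0243, -0.0086 and 0.0178). The block gave Runx2 a change of -0.38. Among genes named, it ended the call for Entpd1 (adjusted p = 0.0547). Low counts limit Runx2, Sox9, Bmp2, Enpp1 and Tnfrsf11b, which filtered limma did not test.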
